A study of Homo sapiens with 40 samples.

Results

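The genes described here are 42 genes of the autophagy machinery and its cargo receptors, from the kinase complex that starts an autophagosome to the proteins that fuse it with a lysosome. They were picked by symbol, and each symbol was matched to its Ensembl gene identifier among the 60504 genes of the expression table. All 42 were found, and all 42 passed the filter on low values that left 14855 genes (at least 1 TPM in at least 7 of the 40 libraries). TPM, the usual length-corrected unit of transcript abundance, divides each gene's reads by its length and sets every library to the same total, so levels can be compared between genes, but the depth of a library can no longer be read from it.

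The cells were human microglia-like cells made from H9, an established embryonic stem cell line, in which CRISPR/Cas9 had introduced variants linked to Alzheimer's disease. Bulk RNA-seq covered 8 TREM2-KO libraries (loss of TREM2, a lipid-sensing receptor of microglia), 7 TREM2-R47H libraries (the missense risk variant of that receptor), 7 SORL1-KO libraries (the R744X stop codon in SORL1, an endosomal sorting receptor), 7 SORL1-A528T libraries (a missense variant of it), 2 CD33 SNP libraries (a risk variant at the sialic-acid receptor CD33), 2 INPP5D SNP libraries (a risk variant at the lipid phosphatase INPP5D) and 7 WT libraries. Every edit was homozygous. Parental H9 is heterozygous G/A at the INPP5D site and was converted to the A allele on both chromosomes. All groups went through the same differentiation: haematopoietic progenitors were collected at day 11 and fed for 28 days with M-CSF (25 ng/mL), TGFβ1 (50 ng/mL) and IL-34 (100 ng/mL), and CX3CL1 and CD200 (each 100 ng/mL) joined them for the last 3 days. The edited lines were picked clones, the labels do not give the number of clones behind a genotype, and a difference of clone and a difference of genotype cannot be told apart. Reporter lines carrying 2A-EGFP behind CX3CR1 were also made in this work, and the labels do not say whether any library came from one. The labels do not call the replicates separate cultures, and each p-value here therefore rests on library-to-library spread that may be technical in part.

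Autophagy wraps cytoplasm or marked cargo in a double membrane and delivers it to the lysosome. The ULK kinase complex and the class III PI3-kinase complex start the membrane, ATG9A and ATG2 proteins bring lipid, and linked ubiquitin-like conjugation reactions attach ATG8 proteins (the LC3 and GABARAP families) to it. Cargo receptors such as p62 and NDP52 hold ubiquitin-marked cargo with one end and ATG8 proteins with the other, and the finished vesicle fuses with lysosomes through tethers and SNARE proteins. Microglia, the phagocytes of the brain, also use part of this machinery to attach LC3 to phagosomes that hold engulfed material.

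The libraries carried the cell type and the edits their labels name, with limits. All 14 markers of microglia and macrophages averaged at least 1 TPM in every group. All 8 monocyte markers also did in TREM2-KO, CD33 SNP and INPP5D SNP, so this floor does not separate microglia from monocytes. Markers of neutrophils summed to at most 1.01 TPM and markers of pluripotent cells to at most 0.67 TPM in any library. TREM2 was at 24.6, 37.6 and 46.5 TPM (lowest, median and highest) in TREM2-KO, against 295, 500 and 585 TPM in WT, with no overlap. SORL1 was at 12.6, 15.99 and 21.5 TPM in SORL1-KO, against 18.6, 36.3 and 43.2 TPM in WT, and these ranges overlap. The missense and SNP edits leave nothing that these values could check. Markers of stromal cells and of monocytes varied widely: the 12 stromal markers summed to 134 to 271 TPM in TREM2-R47H, 835 to 2198 TPM in INPP5D SNP and 189 to 3205 TPM in WT. The libraries TREM2-KO 8, SORL1-KO 7 and SORL1-A528T 7 stood apart, with median correlations to the rest of their group of 0.933, 0.934 and 0.946, against 0.950 to 0.980 for every other library. Calls among the 42 genes are given with and without them. Libraries 5 and 6 were the closest pair within each of the 5 large groups.

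WT levels of the 42 genes differed widely. Among the initiation genes, ATG101 and ATG13, the HORMA-domain partners that hold the ULK complex together, averaged 41.3 and 38.6 TPM in WT, and the kinases ULK2 and ULK1 averaged 10.4 and 7.21 TPM. BECN1, the regulatory core of the PI3-kinase complex, averaged 60.9 TPM and its catalytic subunit PIK3C3 29.6 TPM, while ATG14, the subunit that directs the complex to autophagosomes, averaged 4.74 TPM. In the conjugation step the E2-like enzyme ATG3 was at 95.7 TPM, the E1-like enzyme ATG7 at 47.6 TPM and the E2-like enzyme ATG10 at 7.99 TPM. The ATG8 protein GABARAP averaged 865 TPM and was the most abundant of the 42, followed by the cargo receptor SQSTM1 (p62) at 187 TPM. OPTN, the optineurin cargo receptor, was the least abundant at 2.92 TPM, and in 41 of the 42 genes no library fell under 1 TPM.

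**Figure D1:**
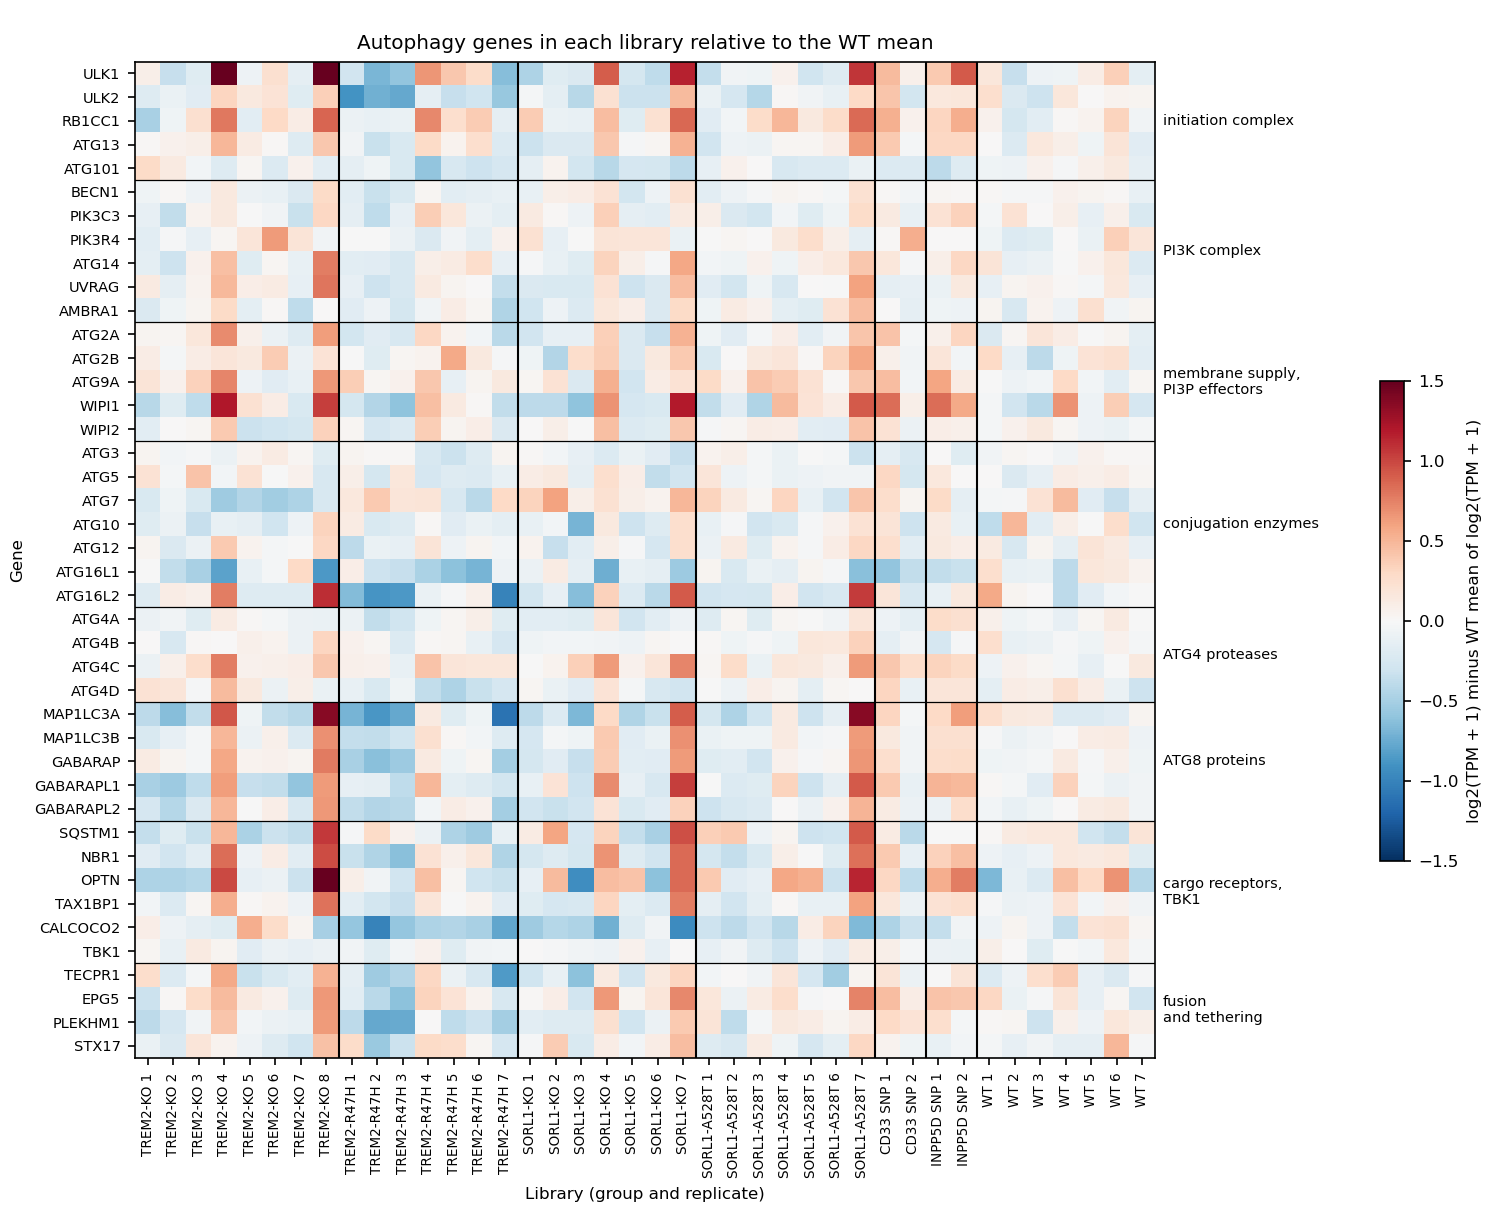
Heat map of the 42 autophagy genes (rows, by role) in the 40 libraries (columns, by group, with WT last). Colour gives log2(TPM + 1) minus the WT mean of the gene, with the scale ending at 1.5 in either direction. The columns of TREM2-R47H 1, 2, 3 and 7 are mostly below the WT mean, those of TREM2-R47H 5 and 6 are mixed, and TREM2-R47H 4 is above it for many genes. The columns of TREM2-KO 8, SORL1-KO 7 and SORL1-A528T 7 are also above it for many genes.

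Within groups, the kinase TBK1 was the steadiest gene (residual SD 0.10 on the log2 scale), while OPTN and ULK1 (both 0.56), MAP1LC3A (0.54) and the PI3P-binding WIPI1 (0.52) varied most. Without the 3 libraries that stand apart the residual SD was 0.09 for TBK1, 0.46 for OPTN, 0.45 for ULK1, 0.37 for MAP1LC3A and 0.43 for WIPI1, and the same 4 genes varied most.

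The clearest differences were in TREM2-R47H cells, where 4 of the 42 genes were lower than in WT and none was higher, in limma's moderated test with Benjamini-Hochberg adjustment over all 14855 genes and a threshold of 0.05. Over all genes 11.4% were called in this comparison, 8.77% lower and 2.63% higher, and the members' 4 of 42 is close to that background. The 4 genes act at different steps: the cargo receptor CALCOCO2, the initiation genes ULK2 and ATG101, and the late tether PLEKHM1. The values come from bulk RNA, so fewer cells of a type and less RNA per cell cannot be told apart.

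CALCOCO2 encodes NDP52, a receptor that brings ubiquitin-coated bacteria and damaged mitochondria to the forming autophagosome. The gene lies on chromosome 17, positions 48830988 to 48866522 on the plus strand (GRCh38, GENCODE release 29). Its lowest, median and highest levels were 23.1, 31.2 and 34.6 TPM in TREM2-R47H, against 36.8, 48.1 and 55.6 TPM in WT. Every TREM2-R47H library was below every WT library. CALCOCO2 was the 1 member of 42 with such a gap, and 3.51% of all genes showed it in that direction. The log2 fold change on the log2(TPM + 1) scale was -0.62 ± 0.14 (SE; 95% interval -0.91 to -0.33; limma adjusted p = 0.00313), and 30.7 ± 4.16 TPM in TREM2-R47H compares with 47.7 ± 6.48 TPM in WT (mean ± SD, n = 7 each). In the other groups it ran from 33.1 over 46.8 to 69.6 TPM in TREM2-KO, from 24.1 over 34.0 to 45.5 TPM in SORL1-KO, and from 29.5 over 38.1 to 60.0 TPM in SORL1-A528T. It was at 33.9 and 37.7 TPM in the CD33 SNP libraries and at 36.7 and 45.7 TPM in the INPP5D SNP libraries. The highest value of each of the 5 large groups was in library 5 or 6, and the 3 libraries that stand apart had the lowest values of their groups. The RefSeq promoter window of CALCOCO2 is shown because this gene carries the largest difference among the members in this comparison (chr17:48830785-48831084, plus strand, GRCh38.p14, 5′ to 3′, 250 bases before to 50 after the annotated start), with a forkhead-type GTAAACA in capitals.
CALCOCO2: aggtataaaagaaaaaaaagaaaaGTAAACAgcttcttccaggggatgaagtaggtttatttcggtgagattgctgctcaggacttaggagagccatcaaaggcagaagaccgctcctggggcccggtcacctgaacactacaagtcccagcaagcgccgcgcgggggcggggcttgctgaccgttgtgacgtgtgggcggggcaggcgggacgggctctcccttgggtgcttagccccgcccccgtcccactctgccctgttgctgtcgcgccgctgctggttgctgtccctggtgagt

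ULK2 encodes a kinase that starts autophagosome formation alongside ULK1 (chromosome 17, 19770829 to 19867936, minus strand). It was at 5.11, 6.64 and 9.29 TPM in TREM2-R47H, against 8.11, 10.7 and 12.5 TPM in WT, as lowest, median and highest. The groups overlap through TREM2-R47H 4 and TREM2-R47H 6, and the other 5 TREM2-R47H libraries were below every WT library. Its log2 fold change was -0.53 ± 0.14 (SE; limma adjusted p = 0.00888). Levels elsewhere reached from 8.90 to 13.5 TPM in TREM2-KO (median 10.6), from 7.47 to 14.7 TPM in SORL1-KO (median 9.26) and from 7.43 to 12.9 TPM in SORL1-A528T (median 9.54). The CD33 SNP libraries had 14.1 and 8.38 TPM and the INPP5D SNP libraries 11.65 and 11.75 TPM. Its paralog ULK1 was not called, at -0.12 (95% interval -0.71 to 0.46).

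ATG101 encodes a small HORMA-domain protein that stabilises ATG13 in the initiation complex (chromosome 12, 52069246 to 52077494, plus strand). It was at 27.0, 34.7 and 39.4 TPM in TREM2-R47H, against 37.4, 40.6 and 45.8 TPM in WT. TREM2-R47H 1 and TREM2-R47H 2 lie within the WT range and the other 5 lie below it. This is a log2 fold change of -0.26 ± 0.08 (SE; limma adjusted p = 0.0272). ATG101 had 35.6, 41.1 and 50.5 TPM in TREM2-KO, 30.6, 34.2 and 42.8 TPM in SORL1-KO, and 34.7, 37.6 and 43.1 TPM in SORL1-A528T. Both CD33 SNP libraries (35.7 and 35.6 TPM) and both INPP5D SNP libraries (31.1 and 35.8 TPM) were below all 7 WT libraries. This call had the highest adjusted p of the 4. It ends under median-ratio scaling (limma adjusted p = 0.179), under quantile normalization (0.132), without a filter on low values (0.0611) and with libraries 5 and 6 averaged (0.0927), and without TREM2-R47H 4 (0.0786), WT 5 (0.0564) or WT 6 (0.0672).

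PLEKHM1 encodes an adaptor that links RAB7, the HOPS tether and ATG8 proteins where autophagosomes meet lysosomes (chromosome 17, 45435900 to 45490749, minus strand). Its levels were 15.9, 20.9 and 28.0 TPM in TREM2-R47H, against 22.3, 28.4 and 31.4 TPM in WT. TREM2-R47H 4 is inside the WT range and the other 6 libraries are below the lowest WT value. The log2 fold change was -0.45 ± 0.13 (SE; limma adjusted p = 0.0217). It had 21.0, 26.4 and 43.8 TPM in TREM2-KO, 22.4, 24.7 and 36.8 TPM in SORL1-KO, and 21.2, 30.1 and 32.0 TPM in SORL1-A528T, with 34.4 and 32.2 TPM in CD33 SNP and 33.4 and 27.2 TPM in INPP5D SNP. Its near-identical pseudogene PLEKHM1P1 was listed at 4.33 to 16.7 TPM, and reads could be split between the pair, so the level is uncertain. The call ends under median-ratio scaling (limma adjusted p = 0.0546), under quantile normalization (0.0744), without a filter on low values (0.0507) and with libraries 5 and 6 averaged (0.0538), and without TREM2-R47H 2 (0.0609) or TREM2-R47H 3 (0.0634).

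ATG4D, a protease that trims and recycles ATG8 proteins, lay just outside the threshold (log2 fold change -0.26, limma adjusted p = 0.0514). Replicate numbers were taken to pair the TREM2-R47H and WT libraries. With the replicate number as a block ATG4D was also called (limma adjusted p = 0.0189), which makes 5. Calls rose over all 14855 genes too, to 721 higher and 2185 lower with the block, from 390 and 1303 in the main fit. The 3 libraries that stand apart belong to neither group and enter through the shared variance. Without them 6 members were called, the 4 above with ATG4D (limma adjusted p = 0.0385) and ATG16L2 (0.0484). Over all genes 532 were then called higher and 1734 lower.

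Read by role, the TREM2-R47H differences were small and mostly negative. Of the 42 fold changes 37 were negative, with a median of -0.11, against -0.06 over all genes. Other scalings moved this: 28 were negative under median-ratio scaling (median -0.04, all genes 0.01) and 27 under quantile normalization (median -0.02, all genes 0.03). The 5 ATG8 genes were all negative under each of the 3 scalings, with a median of -0.23 as deposited. All 6 PI3-kinase genes were negative as deposited (median -0.10), and 3 of the 6 under either other scaling. The conjugation enzymes had 6 of 7 negative (median -0.10), the fusion and tethering genes 4 of 4 (median -0.20), the initiation genes 4 of 5 (median -0.12), the ATG4 proteases 3 of 4 (median -0.09) and the cargo receptors with TBK1 6 of 6 (median -0.11). The 5 membrane supply and PI3P-binding genes had 3 negative (median -0.02), and their median turned positive under both other scalings. Counting the called genes, 8 members had an unadjusted p under 0.05, all of them lower, and 23.6% of all genes did. The TREM2-R47H libraries were not uniform. The 42 genes summed to 1849, 1760, 1751 and 1766 TPM in TREM2-R47H 1, 2, 3 and 7. They summed to 2383, 2080 and 2124 TPM in TREM2-R47H 4, 5 and 6, and to 2160 to 2380 TPM in WT. GABARAP, the most abundant of the 42, weighs most in these sums.

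Markers of other cells moved in the same comparison. Of the 9 stromal markers tested 5 were called lower in TREM2-R47H than in WT, and of 8 monocyte markers 3, while of 14 microglial markers 3 were lower and 1 was higher. Of the 4 progenitor markers tested 2 were called lower, and the 6 listed summed to 100.2 to 129 TPM in TREM2-R47H and 128 to 163 TPM in WT. Of 8 cell cycle markers 1 was called lower, with sums of 684 to 835 TPM in TREM2-R47H and 697 to 855 TPM in WT. Summed monocyte markers spanned 143 to 460 TPM in TREM2-R47H and 305 to 3618 TPM in WT. The endothelial markers CDH5 and VWF averaged under 1 TPM in both groups, and the monocyte markers S100A12, FCN1 and CCR2 averaged under 1 TPM in TREM2-R47H. When the mean stromal marker level entered the model as a covariate, CALCOCO2 was the 1 member still called (log2 fold change -0.57, limma adjusted p = 0.0282). Calls also fell over all genes, to 244 higher and 703 lower from 390 and 1303. The part of the monocyte, microglial, progenitor and cell cycle markers was not tested.

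**Figure D2:**
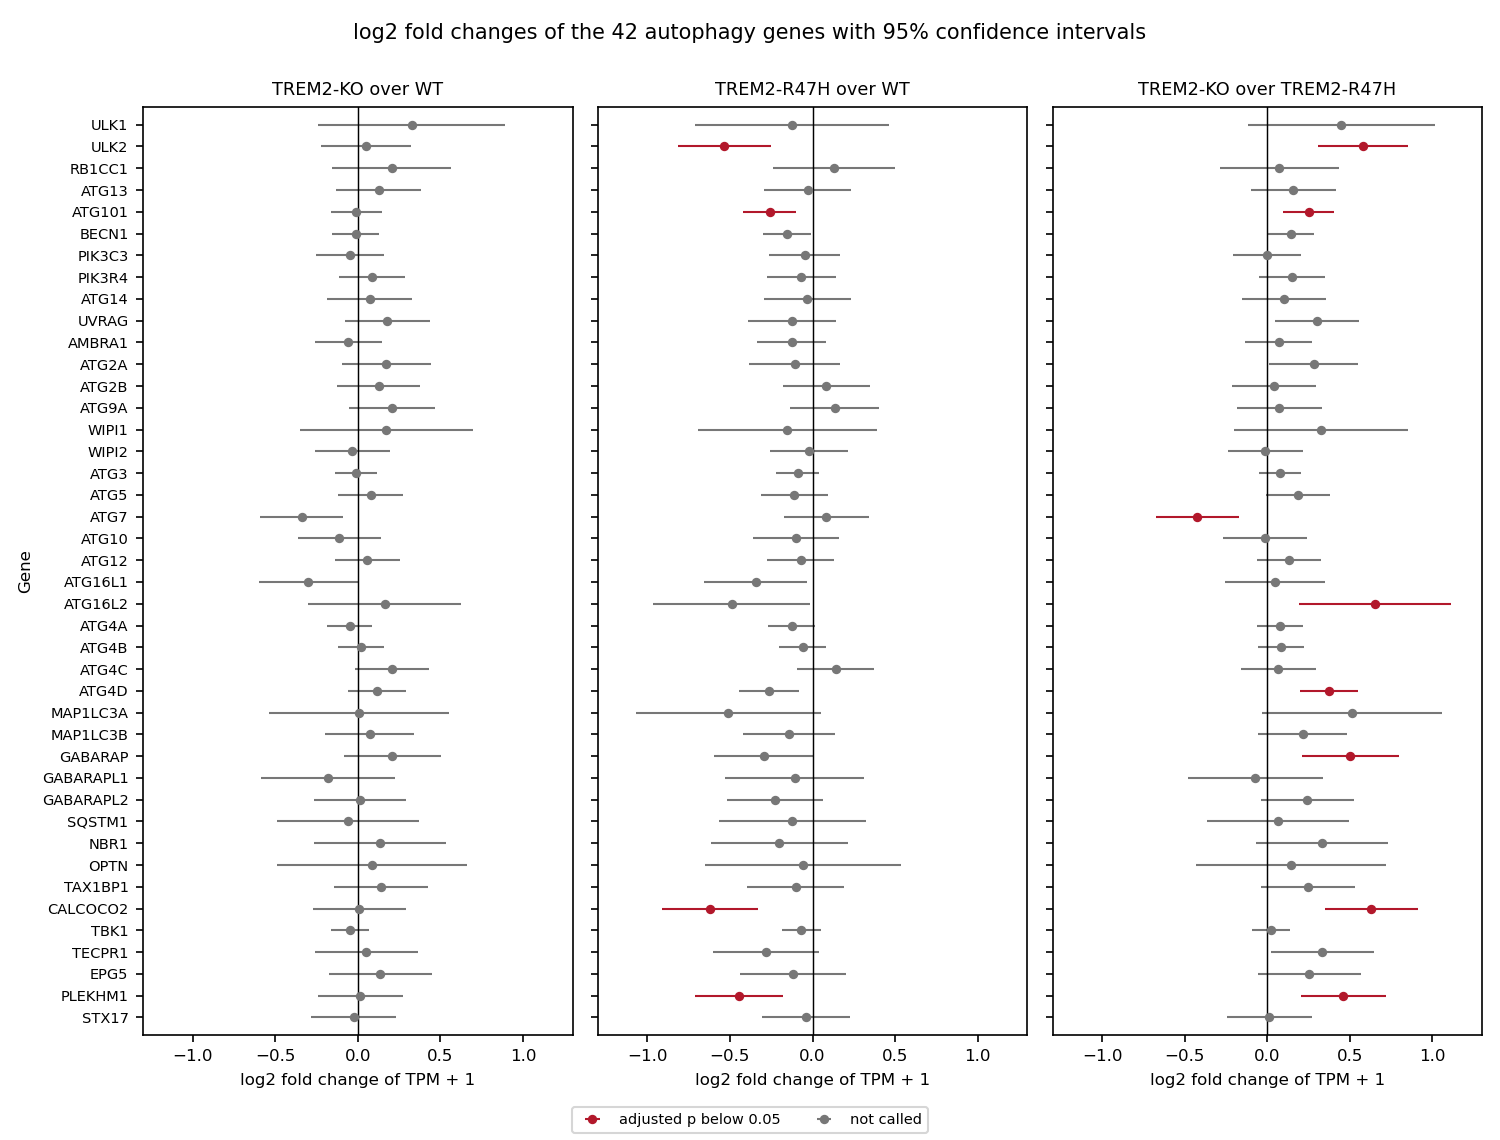
Log2 fold changes of the 42 genes, on the log2(TPM + 1) scale, in 3 comparisons (panels), with 95% limma intervals as lines. Called genes are red and the others grey. The TREM2-R47H panel has 4 called genes, all below 0, the TREM2-KO against TREM2-R47H panel 7 above and 1 below 0, and the TREM2-KO against WT panel none.

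Set against TREM2-R47H, the TREM2-KO cells had higher levels of 7 members and a lower level of 1, while 21.3% of all genes were called (14.7% higher and 6.58% lower). The 7 were CALCOCO2, ATG4D, ULK2, PLEKHM1, GABARAP, ATG101 and ATG16L2, and the 1 was ATG7. This comparison uses the same TREM2-R47H libraries as the one against WT, so the low TREM2-R47H values count in both. In no member were the libraries of TREM2-KO and TREM2-R47H wholly separate (all genes: 3.90% higher and 1.91% lower).

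CALCOCO2 was 0.63 ± 0.14 higher on the log2 scale (SE; limma adjusted p = 0.000964) and ULK2 0.58 ± 0.13 (0.0016), with the libraries given above. PLEKHM1 was 0.46 ± 0.13 higher (0.00796) and ATG101 0.25 ± 0.08 (0.0163). The ATG101 call ends under median-ratio scaling (limma adjusted p = 0.13), under quantile normalization (0.0952), with the 2 groups fitted alone (0.0681) and without TREM2-R47H 4 (0.0525). For CALCOCO2 the overlap comes from TREM2-KO 8, the library that stands apart, since its 33.1 TPM is below the 34.6 TPM of TREM2-R47H 5 and all the other TREM2-KO libraries are above it.

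Without the 3 libraries that stand apart, of which TREM2-KO 8 is in this comparison, the same 8 members were called, with limma adjusted p from 6.82e-05 to 0.0273. The log2 fold changes were then 0.70 for CALCOCO2, 0.41 for ATG4D, 0.54 for ULK2, 0.37 for PLEKHM1, 0.42 for GABARAP, 0.27 for ATG101, 0.52 for ATG16L2 and -0.44 for ATG7.

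ATG4D (chromosome 19, 10543895 to 10553418, plus strand) had 14.9, 17.5 and 22.6 TPM in TREM2-KO, against 11.3, 13.3 and 15.3 TPM in TREM2-R47H. TREM2-KO 6 and TREM2-KO 8 are below the highest TREM2-R47H value and the other 6 are above it. ATG4D was thus higher by 0.38 ± 0.09 on the log2 scale (SE; limma adjusted p = 0.00159). ATG4D had 13.0, 14.9 and 18.7 TPM in SORL1-KO, 14.4, 16.1 and 17.3 TPM in SORL1-A528T, 20.2 and 14.8 TPM in CD33 SNP, 18.4 and 18.3 TPM in INPP5D SNP, and 12.8, 17.2 and 19.1 TPM in WT.

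GABARAP encodes an ATG8 protein that acts late in autophagosome closure and fusion (chromosome 17, 7240014 to 7242770, minus strand). It was at 848, 903 and 1485 TPM in TREM2-KO, against 560, 614 and 949 TPM in TREM2-R47H. TREM2-R47H 1, 2, 3 and 7 lay between 560 and 614 TPM, below every other library of the 40, and TREM2-R47H 4, 5 and 6 between 828.6 and 949 TPM, within or just past the WT range of 828 to 949 TPM (median 850). The log2 fold change was 0.50 ± 0.14 (SE; limma adjusted p = 0.0103). The remaining groups had 679, 769 and 1349 TPM in SORL1-KO, 708, 852 and 1363 TPM in SORL1-A528T, 1026 and 833 TPM in CD33 SNP, and 1036 and 1049 TPM in INPP5D SNP.

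ATG16L2, a homolog of the scaffold that places LC3 conjugation on membranes (chromosome 11, 72814308 to 72843674, plus strand), had 24.9, 27.8 and 63.0 TPM in TREM2-KO, against 13.8, 18.0 and 30.3 TPM in TREM2-R47H. The same 4 TREM2-R47H libraries, 1, 2, 3 and 7, were lowest (13.8 to 18.0 TPM), and the other 3 overlap TREM2-KO. On the log2 scale the difference was 0.65 ± 0.23 (SE; limma adjusted p = 0.036). This call ends without TREM2-KO 4 (limma adjusted p = 0.0872) or TREM2-KO 8 (0.102), and without any 1 of those 4 TREM2-R47H libraries (0.0648 to 0.0924). It also ends under median-ratio scaling (limma adjusted p = 0.0622), under quantile normalization (0.071), without a filter on low values (0.083) and when the 2 groups are fitted alone (0.065). ATG16L2 was at 18.0, 24.9 and 55.3 TPM in SORL1-KO, 23.4, 24.1 and 60.6 TPM in SORL1-A528T, 32.8 and 24.1 TPM in CD33 SNP, 26.6 and 31.9 TPM in INPP5D SNP, and 21.6, 28.7 and 43.1 TPM in WT.

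ATG7, the E1-like enzyme that activates both ubiquitin-like systems (chromosome 3, 11272309 to 11557665, plus strand), went the other way. It had 32.1, 37.0 and 44.9 TPM in TREM2-KO, against 35.3, 53.2 and 62.0 TPM in TREM2-R47H. All TREM2-KO libraries are below 5 of the 7 TREM2-R47H libraries, and TREM2-R47H 5 and 6 lie inside the TREM2-KO range. ATG7 fell by 0.42 ± 0.12 on the log2 scale (SE; limma adjusted p = 0.0117). ATG7 was at 48.6, 54.9 and 71.5 TPM in SORL1-KO, 38.2, 51.6 and 62.7 TPM in SORL1-A528T, 56.6 and 48.2 TPM in CD33 SNP, 57.5 and 42.8 TPM in INPP5D SNP, and 36.8, 45.9 and 65.3 TPM in WT.

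Of the 42 fold changes between TREM2-KO and TREM2-R47H, 37 were positive (median 0.15, all genes 0.06), 26 under median-ratio scaling (median 0.08, all genes -0.01), 31 under quantile normalization and 33 without the libraries that stand apart. All 5 initiation genes, all 4 ATG4 proteases, all 6 cargo genes and all 4 fusion genes were positive as deposited. Of 8 monocyte markers 7 were called higher in the knockout, with sums of 333 to 2382 TPM in TREM2-KO and 143 to 460 TPM in TREM2-R47H, and of 14 microglial markers 5 were higher and 2 lower. Of 8 cell cycle markers 3 were called higher, with sums of 618 to 1056 TPM in TREM2-KO and 684 to 835 TPM in TREM2-R47H. Of the 4 progenitor markers tested 2 were called higher, and the 6 listed summed to 118 to 202 TPM in TREM2-KO and 100.2 to 129 TPM in TREM2-R47H. Of 9 stromal markers 1 was higher and of 2 neural markers 1 was lower. The part of these markers in the autophagy differences was not tested.

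**Figure D3:**
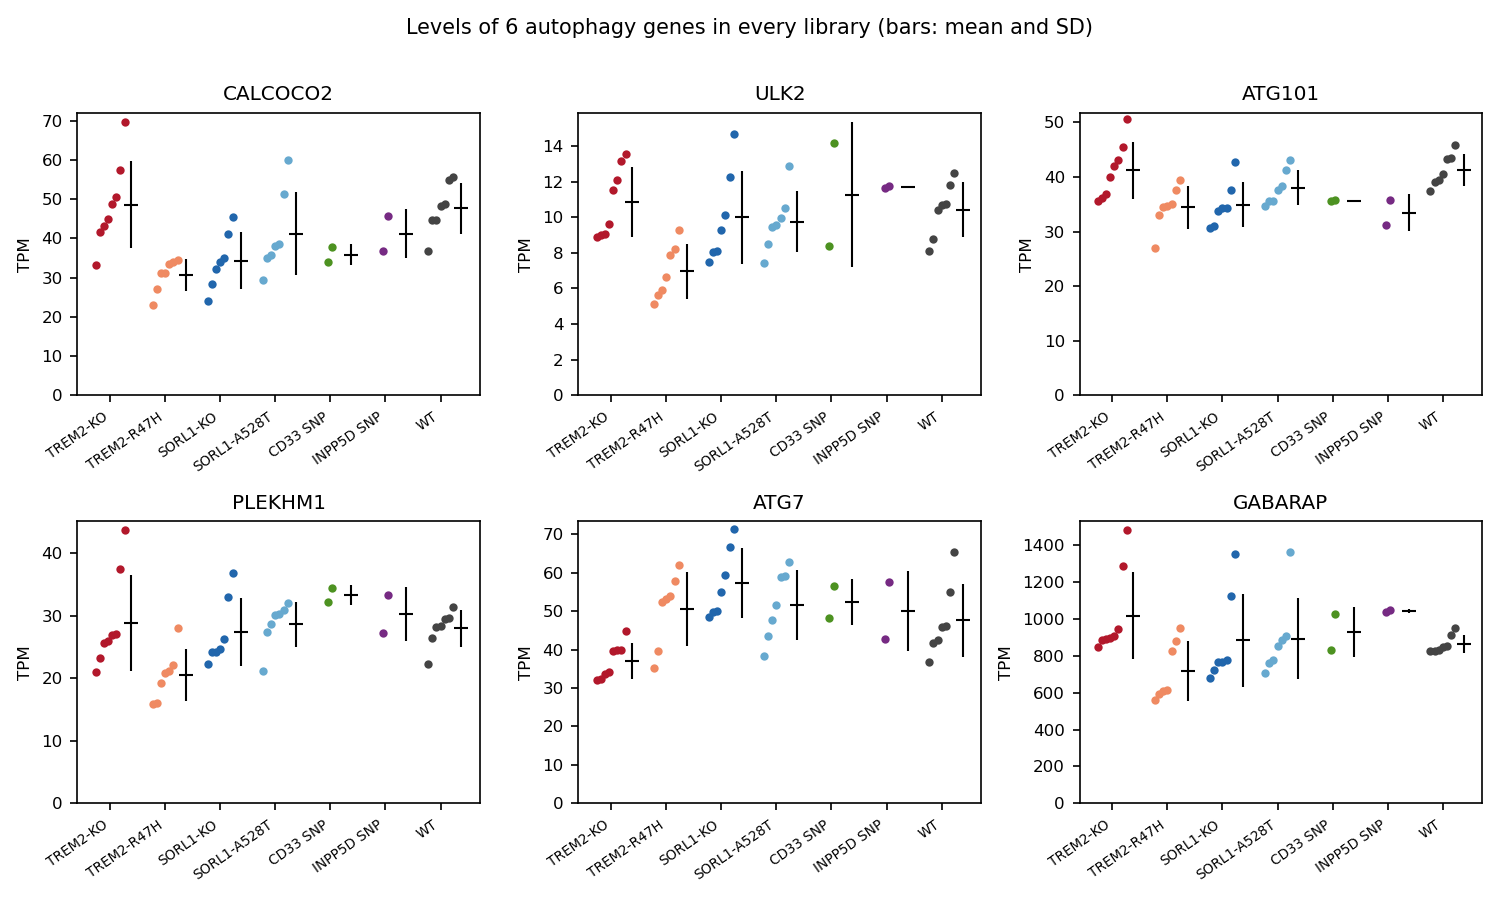
TPM of CALCOCO2, ULK2, ATG101, PLEKHM1, ATG7 and GABARAP in each library, by group, with WT at the right; points are libraries, and the lines give the mean and SD. CALCOCO2 in TREM2-R47H (23.1 to 34.6 TPM) lies wholly below WT (36.8 to 55.6 TPM), and GABARAP in TREM2-R47H falls into 4 low and 3 higher libraries.

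TREM2-KO cells and WT cells showed no called difference in any of the 42 genes, although 1.61% of all genes were called. With no covariate, ATG7 was the 1 member with an unadjusted p under 0.05 (all genes 10.6%), at a log2 fold change of -0.34 (95% interval -0.59 to -0.09; limma adjusted p = 0.196). Replicate numbers were taken to pair these libraries, although same-numbered correlations were only 0.114 to 0.312. With the replicate block ATG7 was called lower (-0.35, limma adjusted p = 0.0337). Over all genes that block called 165 higher and 422 lower, against 42 and 197 in the main fit. TREM2-KO 1 to 7 were each below the WT library of the same number. For 31 of the 42 genes the 95% interval lay within 0.5 of 0 on the log2 scale. The widest upper bound was 0.89, for ULK1. The fold changes had a median of 0.06, and of 0.01 without TREM2-KO 8, with all genes near 0 in either case.

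The ATG8 proteins are the ubiquitin-like proteins that coat the membrane and bind the receptors, and none of the 5 was called against WT in any group. MAP1LC3A was at 10.2, 12.5 and 44.0 TPM in TREM2-KO, 7.11, 9.75 and 18.2 TPM in TREM2-R47H, 9.99, 12.9 and 31.9 TPM in SORL1-KO, and 11.7, 13.6 and 43.9 TPM in SORL1-A528T, against 14.1, 16.9 and 19.8 TPM in WT. It was at 16.2 to 20.8 TPM in CD33 SNP and 20.5 to 26.0 TPM in INPP5D SNP. TREM2-R47H 1, 2, 3 and 7 were again the low ones, at 7.11 to 9.75 TPM, and the groups overlap.

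MAP1LC3B, the form most used as a marker of autophagosomes, had 41.6, 46.8 and 79.1 TPM in TREM2-KO, 37.4, 42.6 and 58.0 TPM in TREM2-R47H, 40.7, 46.6 and 79.1 TPM in SORL1-KO, and 45.6, 47.5 and 76.7 TPM in SORL1-A528T, against 45.6, 48.0 and 53.3 TPM in WT. CD33 SNP had 46.8 to 54.2 TPM and INPP5D SNP 57.8 TPM in both libraries. The medians of the 5 large groups lay between 42.6 and 48.0 TPM, and the ranges overlap.

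GABARAPL1, a GABARAP paralog, had 40.03, 46.7 and 95.3 TPM in TREM2-KO, 46.4, 54.7 and 86.6 TPM in TREM2-R47H, 48.8, 56.3 and 126 TPM in SORL1-KO, and 48.8, 55.1 and 116 TPM in SORL1-A528T, against 54.0, 59.5 and 77.6 TPM in WT. GABARAPL2, the other paralog, had 78.1, 98.4 and 166 TPM in TREM2-KO, 73.7, 81.8 and 114 TPM in TREM2-R47H, 83.6, 90.2 and 134 TPM in SORL1-KO, and 84.7, 99.3 and 151 TPM in SORL1-A528T, against 97.4, 103 and 117 TPM in WT. The upper ends come from a few libraries that are high for several of these genes at once.

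GABARAPL1 was at 79.8 and 56.4 TPM in CD33 SNP and at 86.8 and 85.7 TPM in INPP5D SNP, and GABARAPL2 at 99.1 to 115 TPM and 99.2 to 127 TPM in those groups. The order of abundance in WT (GABARAP, GABARAPL2, GABARAPL1, MAP1LC3B, MAP1LC3A) had no overlap between neighbours, although the lowest GABARAPL1 value (53.95 TPM) was close to the highest MAP1LC3B value (53.26 TPM). The copies MAP1LC3B2 (0.17 to 2.94 TPM), MAP1LC3C (at most 0.27 TPM) and GABARAPL3 (at most 0.15 TPM) were low in every library.

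The other cargo receptors were not called in any comparison. SQSTM1, which gathers ubiquitinated protein into clusters, had 133, 148 and 387 TPM in TREM2-KO, 127, 174 and 226 TPM in TREM2-R47H, 132, 202 and 363 TPM in SORL1-KO, and 149, 190 and 351 TPM in SORL1-A528T, against 144, 202 and 212 TPM in WT. CD33 SNP had 139 to 201 TPM and INPP5D SNP 184 to 185 TPM. The WT median is close to the top of its range, and every edited group overlaps WT.

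NBR1, a receptor that works with SQSTM1, had 26.8, 30.0 and 65.4 TPM in TREM2-KO, 20.9, 25.7 and 38.3 TPM in TREM2-R47H, 26.7, 28.4 and 59.9 TPM in SORL1-KO, and 25.4, 28.9 and 59.0 TPM in SORL1-A528T, against 28.7, 31.1 and 36.8 TPM in WT. TAX1BP1, a relative of NDP52, had 55.8, 65.7 and 114 TPM in TREM2-KO, 50.5, 57.9 and 73.1 TPM in TREM2-R47H, 53.8, 56.9 and 110 TPM in SORL1-KO, and 52.7, 59.4 and 98.8 TPM in SORL1-A528T, against 60.8, 62.9 and 74.2 TPM in WT. Both genes overlap WT in each of these groups, and TREM2-KO 8, SORL1-KO 7 and SORL1-A528T 7 were the highest libraries of their groups for both.

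In CD33 SNP and INPP5D SNP, NBR1 was at 29.9 to 43.2 and 41.8 to 45.1 TPM, and TAX1BP1 at 60.6 to 72.4 and 74.9 to 77.3 TPM. OPTN, a receptor for mitochondria and bacteria that TBK1 phosphorylates, had 1.71, 2.22 and 10.1 TPM in TREM2-KO, 1.96, 2.60 and 4.10 TPM in TREM2-R47H, 0.96, 4.03 and 5.73 TPM in SORL1-KO, and 2.00, 3.92 and 7.24 TPM in SORL1-A528T, with 1.88 to 3.62 TPM in CD33 SNP, 4.43 to 5.35 TPM in INPP5D SNP and 1.35, 2.45 and 4.94 TPM in WT. At these levels a few reads move OPTN, and its widest interval against WT ran to 1.54 on the log2 scale in INPP5D SNP.

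Neither SORL1 edit had a called member in the main fit, which has no covariate and no replicate block. Calls with the replicate number as a block are given further below. In SORL1-KO against WT 1.09% of all genes were called, and 5 of the 42 had an unadjusted p under 0.05 (all genes 10.8%), namely CALCOCO2 (log2 fold change -0.48, limma adjusted p = 0.0846), ATG101 (-0.24, 0.133), the protease ATG4C (0.29, 0.27), ATG3 (-0.14, 0.41) and ATG7 (0.27, 0.423). The widest intervals over the members reached from -0.77 to 0.67, and 29 of 42 lay within 0.5 of 0. CALCOCO2 levels in SORL1-KO overlap those of WT through SORL1-KO 5 and 6, which hold its highest values in SORL1-KO (41.1 and 45.5 TPM). WT 5 and 6 were likewise the highest of WT (54.85 and 55.63 TPM). Every SORL1-KO library was below the WT library of the same number, although the numbers were not taken to pair these 2 groups. In SORL1-A528T against WT 0.0471% of all genes were called, 0 members had an unadjusted p under 0.05 (all genes 5.95%), and 34 of 42 intervals lay within 0.5 of 0. SORL1-KO against SORL1-A528T likewise gave 0 members at an unadjusted p under 0.05 (all genes 2.24%, and 0.0942% called), with 35 of 42 intervals within 0.5 of 0 and bounds from -0.81 to 0.64.

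The INPP5D SNP libraries were the highest set for many of these genes, without a call. With 2 libraries, 0 members and 0.0337% of all genes were called by limma, and 2 members had an unadjusted p under 0.05 (all genes 7.32%), ATG101 (-0.29) and ATG4A, an ATG8 protease (0.26). In 12 of the 42 genes both libraries were above all 7 WT libraries (all genes 5.71%), and in 1, ATG101, both were below (all genes 11.5%). The 12 come from several steps: ULK1 and ATG13 of the initiation complex, PIK3C3, the proteases ATG4A and ATG4C, the ATG8 genes MAP1LC3A, MAP1LC3B, GABARAP and GABARAPL1, the receptors NBR1 and TAX1BP1, and EPG5, a tether of autophagosomes to lysosomes. ATG13 was at 47.7 TPM in both INPP5D SNP libraries, against 33.1 to 44.0 TPM in WT, and ATG4A at 20.2 and 19.5 TPM against 15.0 to 18.2 TPM. WIPI1 had the highest fold change (0.71, 95% interval -0.11 to 1.52), with 43.0 and 35.4 TPM in INPP5D SNP against 17.5 to 38.1 TPM in WT. In the deposited order INPP5D SNP 1 stands among the libraries numbered 4, and INPP5D SNP 2 among those numbered 5. In the 5 large groups the 42 genes summed to 2309 to 3071 TPM in the number 4 libraries and 1977 to 2188 TPM in the number 5 libraries. INPP5D SNP 1 and 2 had 2500 and 2541 TPM. No label gives a batch, and the part of this order was not tested.

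Of the 42 fold changes 33 were positive, with a median of 0.12, against -0.01 for all genes, and 34 were positive under either other scaling. The same 2 libraries had 835 and 2198 TPM of summed stromal markers and 727 and 3127 TPM of summed monocyte markers, and 635 TPM of summed cell cycle markers in each, below all 7 WT libraries (697 to 855 TPM). Their 14 microglial markers summed to 9695 and 10751 TPM, above all 7 WT libraries (7908 to 9453 TPM), and 13 of the 14 had positive fold changes (median 0.28) with 0 called. When the mean stromal marker level entered as a covariate the members' median was 0.09, again with 0 called, and the part of the microglial, monocyte and cell cycle markers was not tested.

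The 2 CD33 SNP libraries gave 0 called members, as 0% of all genes were called by limma, with 1 member at an unadjusted p under 0.05 (ATG16L1, -0.48; all genes 4.18%). ATG4C and PLEKHM1 were above all WT libraries (2 of 42; all genes 1.94%), and ATG101, the PI3-kinase subunit UVRAG and ATG3 below them (3 of 42; all genes 4.69%). With so few libraries 20 of 42 intervals in CD33 SNP and 16 of 42 in INPP5D SNP lay within 0.5 of 0.

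Much of the spread in these genes lay between libraries of 1 genotype. TREM2-KO 8, SORL1-KO 7 and SORL1-A528T 7 were above all others of their group in 22, 28 and 32 of the 42 genes, against 28.2%, 31.4% and 33.8% of all genes that passed the filter. TREM2-KO 4 was next highest for many of them, and 29 of the 42 genes had their highest value of all 40 libraries in 1 of these 4, as did 33.3% of all genes that passed the filter. The summed TPM of the 42 genes was 3463 in TREM2-KO 8, 3257 in SORL1-KO 7, 3291 in SORL1-A528T 7 and 3071 in TREM2-KO 4.

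ULK1 was at 22.05, 17.0 and 16.05 TPM in the 3 libraries that stand apart, which is 3.29, 2.90 and 2.49 times the median of the others of their group. MAP1LC3A was at 44.0, 31.9 and 43.9 TPM there, or 3.52, 2.53 and 3.28 times. WIPI1 was at 49.3, 55.2 and 45.5 TPM, GABARAPL1 at 95.3, 126 and 116 TPM, SQSTM1 at 387, 363 and 351 TPM and NBR1 at 65.4, 59.9 and 59.0 TPM.

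The initiation kinase, a lipid binder, ATG8 genes and receptors were therefore high in the same libraries. Other members were low in them: ATG3 was at 84.4, 74.8 and 76.2 TPM, below every other library of its group, and CALCOCO2 at 33.1, 24.1 and 29.5 TPM, also the lowest of each group. Cell cycle markers summed to 618, 398 and 453 TPM in these 3 libraries, against 635 to 1056 TPM in the others. TREM2-R47H 4 was the highest of its group in 25 of the 42 genes (all genes 22.8%). No label gives a batch, and what the 3 libraries share was not tested.

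GABARAPL1 and ATG3 are shown as promoters of a gene that was high and a gene that was low in those 3 libraries (chr12:10212627-10212926, plus strand, and chr3:112561913-112562212, minus strand, RefSeq windows in GRCh38.p14, 5′ to 3′). Capitals mark TGACGTCA, the cyclic AMP response element, in GABARAPL1, and CACGTG, the E-box core that MiT/TFE factors can bind, in ATG3.
GABARAPL1: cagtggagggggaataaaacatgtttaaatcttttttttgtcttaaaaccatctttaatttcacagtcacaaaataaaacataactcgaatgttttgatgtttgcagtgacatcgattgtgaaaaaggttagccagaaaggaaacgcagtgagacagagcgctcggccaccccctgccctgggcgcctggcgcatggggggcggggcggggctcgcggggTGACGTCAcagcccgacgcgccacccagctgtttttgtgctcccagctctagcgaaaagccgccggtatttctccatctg
ATG3: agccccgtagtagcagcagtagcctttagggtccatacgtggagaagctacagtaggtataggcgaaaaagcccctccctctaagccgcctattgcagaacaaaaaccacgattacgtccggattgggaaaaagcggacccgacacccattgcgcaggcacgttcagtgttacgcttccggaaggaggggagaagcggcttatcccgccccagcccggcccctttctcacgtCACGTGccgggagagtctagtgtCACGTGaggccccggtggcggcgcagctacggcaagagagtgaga

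These motifs were searched on both strands in 300-base windows, of which the table holds 35116, and 36 of the 42 genes have at least 1 (44 windows). CACGTG occurs in 7.26% of all windows and in 3 member genes (ATG3, ATG14 and TBK1), GTAAACA in 3.42% and in CALCOCO2, and TGACGTCA in 1.85% and in GABARAPL1. The motifs do not overlap one another in the windows shown. They were chosen with the values known, and a match describes letters in a window and is not a site or a cause.

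**Figure D4:**
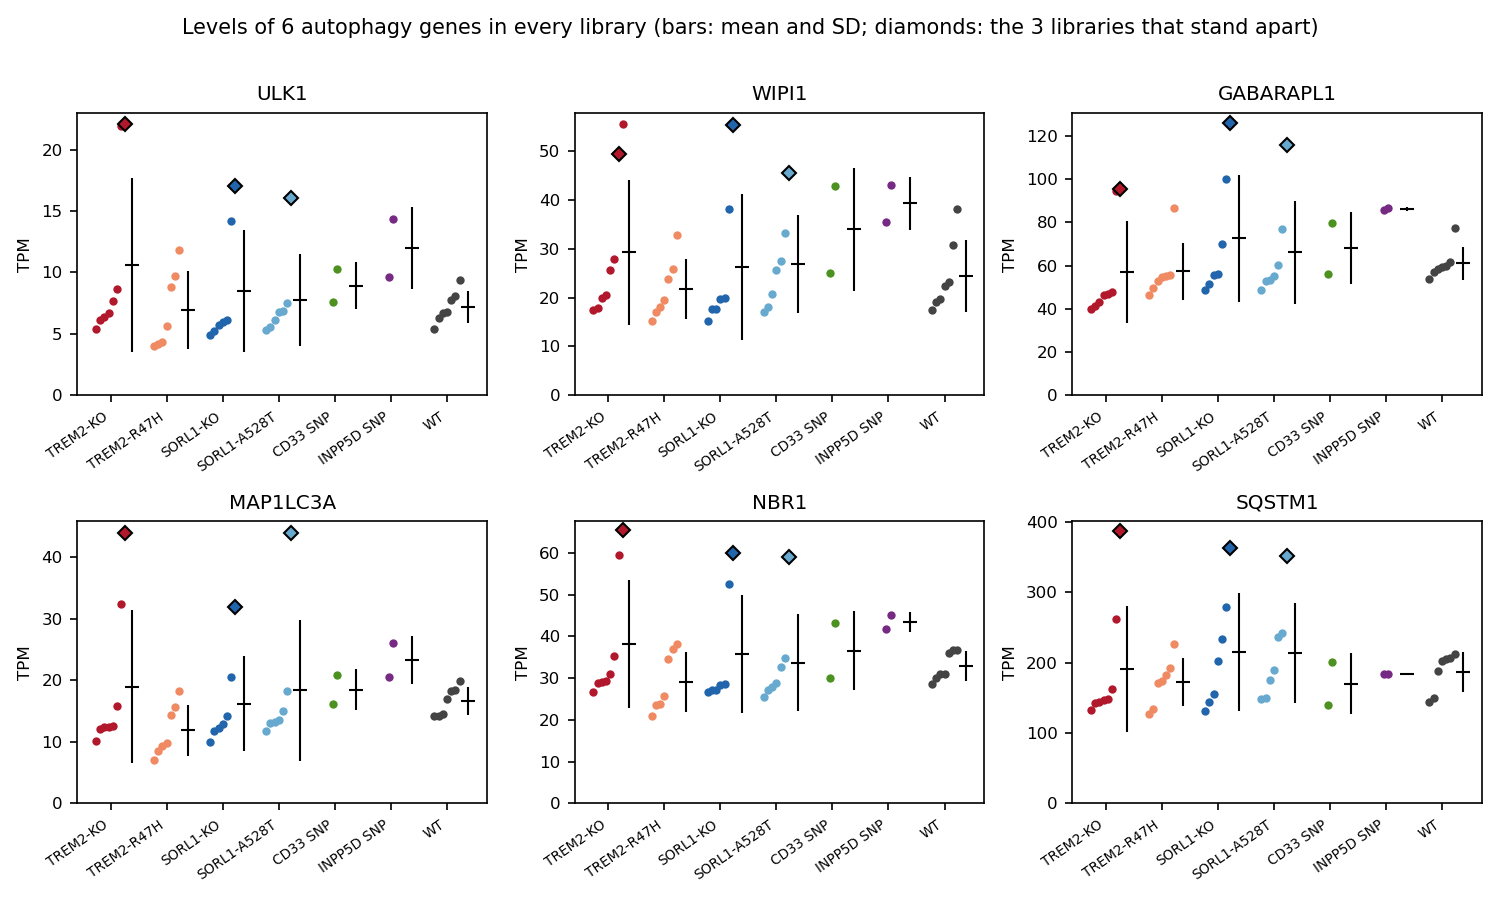
TPM of ULK1, WIPI1, GABARAPL1, MAP1LC3A, NBR1 and SQSTM1 in each library by group, with WT at the right; diamonds are TREM2-KO 8, SORL1-KO 7 and SORL1-A528T 7, and circles the other 37 libraries. The diamonds lie at or near the top of their groups in all 6 genes, with ULK1 at 16.05 to 22.05 TPM.

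Transcription of autophagy and lysosome genes is controlled in part by the MiT/TFE factors, which act mainly through their movement into the nucleus, a step that RNA levels do not show. TFE3 was at 60.3, 64.0 and 91.4 TPM in TREM2-KO, 81.3, 89.3 and 95.5 TPM in TREM2-R47H, 56.2, 61.7 and 67.9 TPM in SORL1-KO, 104, 109 and 118 TPM in SORL1-A528T, and 103 and 127 TPM in INPP5D SNP, against 61.5, 66.1 and 70.8 TPM in WT. All libraries of TREM2-R47H, SORL1-A528T and INPP5D SNP were above all WT libraries, and CD33 SNP had 62.0 and 78.0 TPM. By limma TFE3 was called higher than in WT in TREM2-R47H (log2 fold change 0.41), SORL1-A528T (0.73) and INPP5D SNP (0.79), and lower in TREM2-KO than in TREM2-R47H (-0.35) and in SORL1-KO than in SORL1-A528T (-0.84).

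TFEB was not called, at 58.7, 73.1 and 77.7 TPM in TREM2-KO, 61.6, 65.3 and 80.3 TPM in TREM2-R47H, 54.9, 65.2 and 74.3 TPM in SORL1-KO, 63.5, 71.5 and 75.5 TPM in SORL1-A528T, and 57.0 to 64.8 TPM in INPP5D SNP, against 56.7, 77.01 and 99.8 TPM in WT. MITF was lower in TREM2-KO (6.02, 7.61 and 12.4 TPM) than in TREM2-R47H (8.61, 13.5 and 17.1 TPM), at -0.58 (limma adjusted p = 0.0235), with 7.57, 9.98 and 14.4 TPM in WT. TFEC, at 32.9, 40.7 and 48.3 TPM in TREM2-KO, 31.9, 36.5 and 53.1 TPM in TREM2-R47H and 29.2, 35.2 and 43.8 TPM in WT, was not called in any comparison.

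In SORL1-A528T and INPP5D SNP, TFE3 was called while none of the 42 machinery genes was, and a link between the 2 was not tested. INPP5D SNP had only 2 libraries. There 12 of the 42 genes were above every WT library (all genes 5.71%) and 1 was below (all genes 11.5%).

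A further list of 74 autophagy genes outside the 42, of which 68 passed the filter, gave 3 higher and 9 lower genes in TREM2-R47H against WT, where 2.63% of all genes were higher and 8.77% lower. In TREM2-KO against TREM2-R47H it gave 15 higher and 8 lower, where 14.7% of all genes were higher and 6.58% lower. RAB7A, the GTPase of late endosomes that recruits PLEKHM1, had 199, 214 and 227 TPM in TREM2-R47H and 222, 230 and 246 TPM in SORL1-KO, against 254, 272 and 295 TPM in WT, with both groups wholly below WT. It fell in TREM2-R47H by 0.34 and in SORL1-KO by 0.23 on the log2 scale, and was 0.31 higher in the TREM2 knockout than in TREM2-R47H cells. The other genes of the TREM2-R47H comparison with the lowest adjusted p were the ER-phagy receptor SEC62 (-0.29), the HOPS subunit VPS18 (-0.29), the kinesin adaptor FYCO1 (0.58, at only 1.91 to 2.89 TPM in TREM2-R47H and 0.83 to 2.01 TPM in WT) and AKT1S1, an inhibitory subunit of mTORC1 (0.31).

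RAB7A, SEC62 and VPS18 were thus lower beside the tether PLEKHM1, while FYCO1, which also binds RAB7, was higher. In TREM2-KO against TREM2-R47H, which uses the same TREM2-R47H libraries, these genes took the opposite sign where called, with FYCO1 at -0.83, SEC62 at 0.30 and AKT1S1 at -0.38, and the ER-phagy receptor RTN3 was 0.37 higher. In TREM2-KO against WT the ER-phagy receptor TEX264 was the 1 gene called, lower by 0.34 at 51.6, 66.9 and 74.1 TPM in TREM2-KO, against 74.4, 79.0 and 90.5 TPM in WT. In SORL1-KO against WT RAB7A was the 1 gene called, and in SORL1-A528T and INPP5D SNP TFE3 was.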

How the data were processed

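The authors deposited TPM values for 60504 genes in 40 libraries, and the submitters' processing notes list RSEM 1.3.1, STAR 2.7, cutadapt 1.18 and DESeq2. The genome build was not given in the sources used here. Libraries were stranded and read as 150 bp pairs, and per the labels the mean depth was 45.13 M reads (39.2 to 64.6), but no library's own depth is known. Near-identical copies can exchange reads under such estimates. Positions come from GENCODE release 29 (GRCh38).

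Values were taken as log2(TPM + 1) and genes were kept that reached 1 TPM in at least 7 libraries. All 7 groups entered one limma 3.58.1 fit (R 4.3.3, trend and robust variance, no covariates), with Benjamini-Hochberg adjustment over 14855 genes, a threshold of 0.05 and 8 comparisons. TPM replaced counts, so no count test was run. The procedure was tested on simulated data. The members and lists were chosen with earlier results of these data known. Every called member and all ATG8 and cargo receptor genes are named with levels in each group, other members by counts and ranges, MiT/TFE factors always, and of further genes those called, up to 6 per comparison.

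Replicate numbers were taken to pair libraries where same-numbered deviations from the group means correlated above 0.1 in every pair: TREM2-KO with WT (0.114 to 0.312), TREM2-R47H with WT (0.140 to 0.278) and SORL1-KO with SORL1-A528T (0.306 to 0.785). Alternatives changed the pseudocount, filter, scaling, libraries and covariates. Those without the libraries that stand apart, with the stromal marker level, with libraries 5 and 6 averaged, and without single replicates of the large groups were chosen after seeing the data.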

Additional observations from a re-analysis of the deposited data

Results flagged for a closer look

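Within each large group, the highest or lowest library of a gene was compared with its nearest neighbour relative to the group's range (Dixon's 95% criterion). Of 210 sets of values 26 passed, where chance passes about 1 in 20, or 10.5. SORL1-A528T 7 accounted for 15 of them, each time as the highest of its group. In that library ULK1 was at 16.05 TPM (next highest 7.49), ATG13 at 60.49, ATG14 at 6.57, UVRAG at 21.8, the lipid transfer protein gene ATG2A at 17.12, WIPI2 at 90.0 and ATG16L2 at 60.63 TPM. The ATG8 genes MAP1LC3A (43.86 TPM, next highest 18.18), MAP1LC3B (76.66), GABARAP (1363.32), GABARAPL1 (116.04) and GABARAPL2 (151.16) stood out there too, with NBR1 at 59.01, TAX1BP1 at 98.8 and EPG5 at 14.57 TPM.

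The other 11 were spread over 10 libraries. They were PIK3R4 at 13.44 TPM in TREM2-KO 6, ATG10 at 10.09 TPM in TREM2-KO 8, ATG2B at 7.55 TPM in TREM2-R47H 5, GABARAPL1 at 86.56 TPM in TREM2-R47H 4 and at 77.63 TPM in WT 4, and ATG4A at 18.78 TPM in SORL1-KO 4. ATG5 was at 20.14 TPM in SORL1-A528T 1, ATG16L2 at 43.12 TPM in WT 1, ATG9A, the vesicle scramblase of autophagosome growth, at 14.22 TPM in WT 4, and the SNARE gene STX17 at 12.25 TPM in WT 6. PLEKHM1 in SORL1-A528T 2 was the 1 low value, at 21.16 TPM with the next lowest at 27.34.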

How the results depend on the processing

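No member changed sign against its reported call under any setting run. In TREM2-R47H against WT the 4 calls became 2 (CALCOCO2 and ULK2) under median-ratio scaling and 2 under quantile normalization, 2 without a filter on low values, 2 with libraries 5 and 6 averaged, and 1 (CALCOCO2) with the stromal marker level as a covariate; the cause was not tested. Over all genes the scalings moved the split in this comparison to 607 higher and 822 lower (median-ratio) and 600 and 746 (quantile) from 390 and 1303, and in TREM2-KO against TREM2-R47H to 1452 and 1408, and 1487 and 1309, from 2180 and 977. In TREM2-R47H against WT 244 genes were higher and 703 lower with the stromal covariate. With libraries 5 and 6 averaged 292 were higher and 941 lower, and without the filter 312 and 1024 of 35502. Leaving out 1 replicate at a time gave 3 to 5 calls for TREM2-R47H against WT, 7 to 8 for TREM2-KO against TREM2-R47H and 0 in each other comparison. For TREM2-KO against TREM2-R47H the other settings gave 6 to 8. Without the 3 libraries that stand apart, 0 members were called in each comparison that does not involve TREM2-R47H. Over all genes 85 were then higher and 184 lower in TREM2-KO against WT, and 29 and 98 in SORL1-KO against WT. The counts were 6 and 1 in SORL1-A528T against WT, and 5 and 12 in SORL1-KO against SORL1-A528T. INPP5D SNP against WT had 1 call when the 2 groups were fitted alone (GABARAPL1, limma adjusted p = 0.0455). With the replicate number as a block, in comparisons where the numbers were taken to pair libraries, TREM2-KO against WT had 1 call (ATG7), and no call changed in SORL1-KO against SORL1-A528T. Where libraries share only a number, the block gave 2 calls in INPP5D SNP against WT (WIPI1 and ATG101), 2 in SORL1-KO against WT (CALCOCO2 and ATG101, limma adjusted p = 0.00188 and 0.0221), 0 in SORL1-A528T and in CD33 SNP against WT, and 8 in TREM2-KO against TREM2-R47H, with ATG5 (limma adjusted p = 0.049) in and ATG16L2 (0.0823) out. Of 7 libraries 2 to 4 correlated best with their own number in these comparisons of large groups, and 3 to 4 in those taken as paired. In INPP5D SNP against WT 0 of 2 did, with same-numbered correlations of 0.0212 and 0.102, so its 2 block calls rest on no pairing. Over all genes the block called 607 higher and 960 lower there, and 230 and 505 in SORL1-KO against WT. Limma adjusted p over all settings ran from 9.68e-06 to 0.0282 for CALCOCO2 and from 0.000614 to 0.143 for ULK2 in TREM2-R47H against WT. Groups of 2 libraries and genes of a few TPM, such as OPTN, limit what can be seen.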

Other observations

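ATG16L1, the scaffold that places LC3 conjugation on membranes, begins at position 233210051 of chromosome 2 (GRCh38, GENCODE release 29), just past the end of INPP5D at 233207903. It was at 13.2 and 13.5 TPM in INPP5D SNP, against 12.9, 17.9 and 20.7 TPM in WT, with a log2 fold change of -0.35 (95% interval -0.82 to 0.11; limma adjusted p = 0.667). CD33 SNP, whose edit is on another chromosome, had 11.2 and 13.1 TPM. ATG16L1 was chosen after its values were seen.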
